A study of Mus musculus with 16 samples.

Results

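Immune checkpoint ligands are surface or secreted proteins through which a cell restrains, or in some cases supports, the immune cells that contact it. The 10 genes described here were given by name (Cd274, Pdcd1lg2, Cd47, Cd80, Cd86, Lgals9, Pvr, Nectin2, Cd276 and Vsir) and were found by their gene IDs, 10 of 36528 IDs in the count tables. All 10 passed the filter on low counts, as did 18072 IDs in all. Expression was measured by RNA sequencing of cells that were sorted for GFP out of intestinal tumours of mice, with 4 libraries in each of 4 groups and 16 libraries in total. The groups were GFP- and GFP+ cells of tumours with the genotype labelled AKVPL, and GFP- and GFP+ cells of tumours with the genotype labelled AKVPSL. The study's design names the sorted cells by Lgr5, the receptor that marks stem cells at the base of the intestinal crypt, and GFP is read here as its reporter. The labels do not spell out the genotype letters. In mouse models of intestinal cancer named in this manner, A, P and S stand for changes in Apc, Trp53 and Smad4 and L for the Lgr5 reporter, so that the names differ by the S alone and the other changes are shared by all 4 groups. What drives the recombination, the age of the animals, whether a tumour grew from transplanted cells and whether animals were pooled are not stated in the sources used here. Nothing says that the 4 libraries of a group came from separate animals, so each p-value refers to spread among libraries, part of which may be technical.

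PD-L1 and PD-L2, the products of Cd274 and Pdcd1lg2, bind PD-1 on activated T cells and dampen signalling from the T cell receptor. CD80 and CD86 are carried mainly by dendritic cells, macrophages and B cells, and either costimulate T cells through CD28 or restrain them through CTLA-4. CD47 binds SIRP alpha on macrophages and inhibits phagocytosis. PVR (CD155) and nectin-2 (CD112) are adhesion proteins of epithelial and other cells that bind TIGIT as an inhibitory and CD226 as an activating receptor. Nectin-2 also binds the inhibitory receptor PVRIG. Galectin-9, the product of Lgals9, is a secreted lectin with TIM-3 among its partners. CD276 (B7-H3) is a widely expressed B7 protein of many tumours, and VISTA, the product of Vsir, is found mostly on myeloid cells. Interferon is the best known inducer of PD-L1, acting through JAK kinases, STAT factors and interferon regulatory factors (IRF).

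The members lie on 6 chromosomes in the RefSeq gene table of build GRCm38.p6. Cd274 (chr19:29362107-29388095) and Pdcd1lg2 (chr19:29410919-29472927) are neighbours with 22.8 kb between them. Nectin2 (chr7:19716644-19749573) and Pvr (chr7:19903578-19921143) lie 154 kb apart. Cd86 (chr16:36568956-36666158) and Cd80 (chr16:38457430-38495958) share chromosome 16 with Cd47 (chr16:49851328-49912503). Lgals9 lies at chr11:78962979-78984924, Cd276 at chr9:58524300-58555033 and Vsir at chr10:60346851-60430294. Vsir lies inside the span of Cdh23, and Cd274 overlaps Plgrkt on the other strand. The strand setting of the counting is not given, so reads of these overlapping genes cannot be told apart where their exons meet.

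Promoter windows (250 bases before to 50 after the start site) were held for 8 of the 10 members in the RefSeq table of build GRCm38.p6, and Cd86 and Pvr were not matched. The sequences below are shown because the 3 genes had the sort effects that differed between genotypes (below), and the Lgals9 window holds an interferon element. They are the upstream stretches free of annotated exons, 5′ to 3′ on the gene's own strand, and the capitals mark a match to the IRF element (GAAA, any 2 bases, GAAA), here read on the opposite strand. The windows lie at chr11:78984947-78985174 (minus strand) for Lgals9, chr19:29367391-29367437 (plus strand) for Cd274 and chr19:29410669-29410918 (plus strand) for Pdcd1lg2. The stretch of Cd274 lies before a start site inside the gene span given above, and the outer start of that span is not shown.
Lgals9: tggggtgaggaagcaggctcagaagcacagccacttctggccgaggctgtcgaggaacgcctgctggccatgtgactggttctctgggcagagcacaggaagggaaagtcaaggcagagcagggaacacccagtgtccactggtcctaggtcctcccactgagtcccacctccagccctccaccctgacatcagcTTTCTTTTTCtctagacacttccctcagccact
Cd274: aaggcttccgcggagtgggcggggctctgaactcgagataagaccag
Pdcd1lg2: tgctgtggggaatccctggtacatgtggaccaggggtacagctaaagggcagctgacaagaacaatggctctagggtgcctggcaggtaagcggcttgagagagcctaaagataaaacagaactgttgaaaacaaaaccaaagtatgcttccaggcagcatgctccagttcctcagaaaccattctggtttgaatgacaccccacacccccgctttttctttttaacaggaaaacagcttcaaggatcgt
In the full windows, searched on both strands, the IRF element was present in 1 of the 8 members, Lgals9, at positions -55 to -46 and again at 16 to 25 after the start. It was present in 3.44% of all 32851 promoter windows of the table. The GAS element (TTC, any 3 bases, GAA) was in 0 of the 8 members and in 8.30% of all windows. The hypoxia element ACGTG was in 2 of the 8, Cd47 and Cd274, and in 19.6% of all windows. A match is a description of letters, and a window without one says nothing about binding elsewhere.

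Libraries held between 10.9 M and 41.6 M counts (M, 1e+06 counts), with a median of 25.9 M. Lgr5 checked the sort: its level was 296 ± 40.0 CPM (TMM-scaled counts per 1e+06 counts, mean ± SD, n = 4) in AKVPL GFP+ against 65.7 ± 8.30 in GFP-, and 270 ± 15.0 against 67.7 ± 17.8 in AKVPSL. The titles all say colon, whereas the tissue field has colon for 1 library (AKVPSL GFP- replicate 1) and small intestine for the other 15. Markers of cells other than epithelium were present in all groups and were unequal between them. The 10 pan-leukocyte markers summed to between 1170 and 1750 CPM in GFP- cells of AKVPL and between 144 and 368 in their GFP+ counterparts. In AKVPSL the limits were 330 and 1050 for GFP- and 32.2 and 115 for GFP+. Summed levels of 11 macrophage markers were 706 to 3860 CPM in AKVPSL GFP- and 119 to 393 in AKVPSL GFP+, against 2690 to 4520 and 420 to 1120 in AKVPL. The summed dendritic cell markers had log2 ratios of the mean sums, GFP+ over GFP-, of -3.81 in AKVPL and -4.03 in AKVPSL, and no library of GFP+ cells reached any library of GFP- cells of its genotype. T and NK cell markers were low, with a sum over the 9 of at most 8.06 CPM in any library. Cd3d, Cd3g, Nkg7 and Ncr1 had 3 or fewer counts summed over each group. Cd4 was higher, at 3.72 ± 2.83 CPM in AKVPSL GFP- and 2.08 ± 0.554 in AKVPL GFP- cells. The 6 B cell markers summed to at most 3.38 CPM. Among them Ms4a1 had 3 or fewer counts in each group, while Cd79b averaged 1.33 CPM in AKVPL GFP- and Blk 1.13 in AKVPL GFP+. The 12 epithelial markers summed to between 9440 and 13600 CPM in every library. In bulk libraries, fewer cells of a type and less RNA per cell cannot be told apart.

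**Figure D1:**
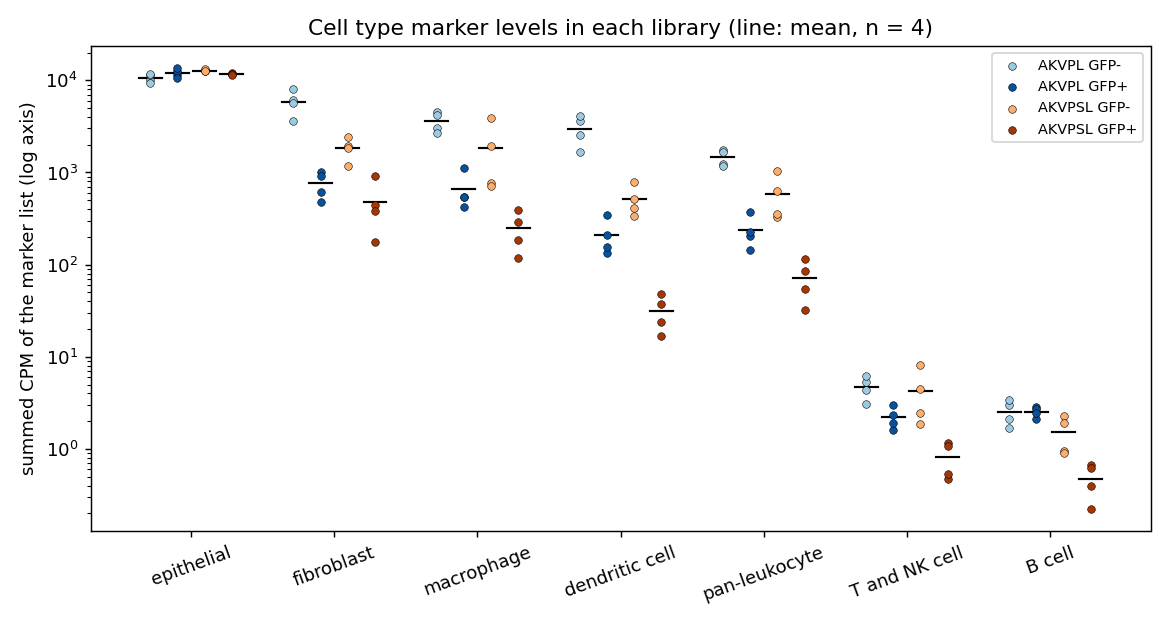
Summed CPM of 7 marker lists (log axis) in each of the 16 libraries, coloured by group, with the group mean as a line (n = 4). Epithelial sums average between 10700 and 12700 CPM, with AKVPL GFP- (9440 to 11700) fully below AKVPSL GFP- (12500 to 13200). Leukocyte, macrophage, dendritic cell and fibroblast sums are lower in GFP+ than in GFP- cells of both genotypes, and T and B cell sums stay below 10 CPM.

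Levels of different genes were compared on the RPKM values that the authors deposited, since these account for gene length. In AKVPL, Lgals9 was the highest of the 10 genes, at 135 ± 11.1 RPKM (SD, n = 4) in GFP- and 164 ± 7.67 in GFP+ cells, above every library of the next gene, Nectin2 (54.4 ± 4.95 and 61.4 ± 4.21). In AKVPSL, Nectin2 was the highest, at 45.5 ± 4.34 RPKM in GFP- and 48.3 ± 1.96 in GFP+ cells, and Lgals9 lay at 38.0 ± 2.14 and 32.2 ± 1.99. The ranges of Lgals9 and Pvr overlapped in AKVPSL, as did those of Pvr and Cd47 in its GFP- cells and of Lgals9 and Cd276 in its GFP+ cells. Lgals9, Nectin2, Pvr, Cd276 and Cd47 thus formed an upper tier with between 22.8 and 164 RPKM as group means. They held 88.7 ± 1.49% of the summed RPKM of the 10 genes in GFP- and 97.9 ± 0.550% in GFP+ cells of AKVPL. The shares in AKVPSL were 89.5 ± 3.38% and 95.6 ± 1.38%.

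The lower tier held Cd274, Pdcd1lg2, Cd80, Cd86 and Vsir, with group means from 0.235 RPKM (Cd80 in AKVPSL GFP+) to 11.6 RPKM (Cd274 in AKVPL GFP-). Cd274 led this tier in all 4 groups. Its range overlapped that of the next gene in 3 groups and stood apart in AKVPL GFP+, where Cd274 lay at 2.75 ± 0.488 RPKM and Vsir at 1.37 ± 0.515. The ratio of Cd274 to Pdcd1lg2 RPKM was 2.70 ± 0.595 in GFP- and 3.61 ± 0.481 in GFP+ cells of AKVPL. In AKVPSL these ratios were 1.12 ± 0.0717 and 1.77 ± 0.274. The lowest ratio in AKVPL GFP-, 2.08, was above the highest in AKVPSL GFP+, 1.99. Summed over the 10 genes, the level was 328 ± 33.0 RPKM in AKVPL GFP- and 333 ± 20.1 in GFP+, against 208 ± 8.71 and 184 ± 4.56 in AKVPSL.

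**Figure D2:**
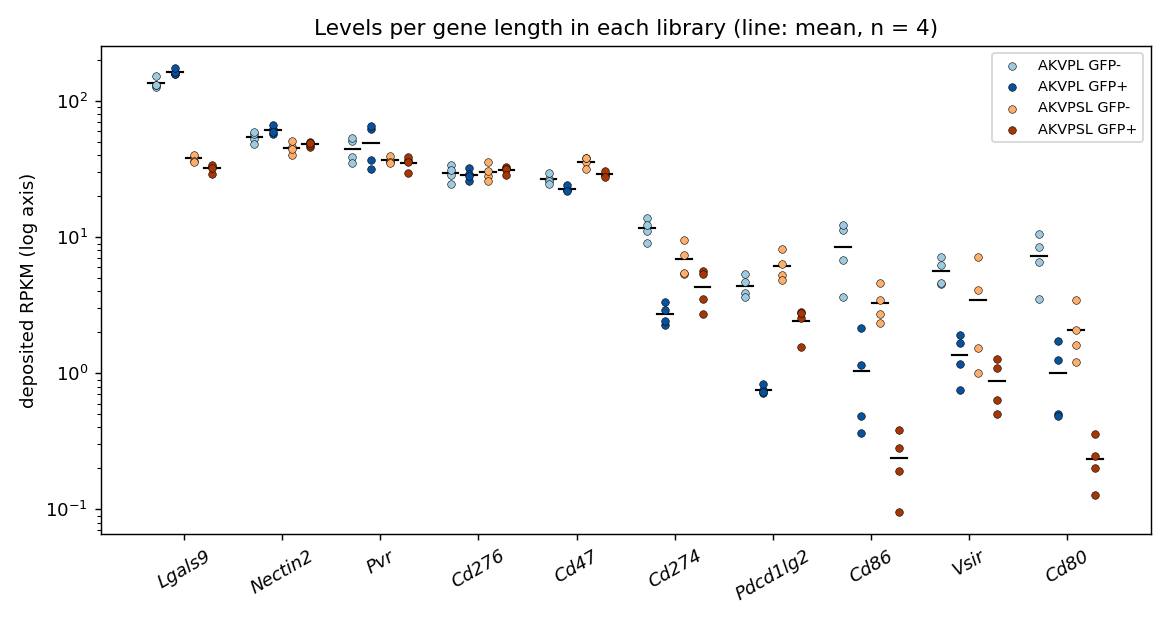
Deposited RPKM (log axis) of the 10 genes in each library, ordered by mean level, with group means as lines (n = 4). Lgals9 is at 128 RPKM or more in both AKVPL groups and lies between 29.4 and 40.4 in AKVPSL, and the 5 genes at the right lie below the other 5 in every group.

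The sort comparison asks how GFP+ cells differed from GFP- cells of the same genotype. In AKVPL tumours Cd274, Pdcd1lg2, Cd80, Cd86 and Vsir fell in GFP+ cells by 1.95 to 2.94 on the log2 scale, while Lgals9 and Nectin2 rose slightly. Thus 5 of the 10 members were lower and 2 higher (edgeR adjusted p under 0.05), beside 16.5% of all genes tested lower and 22.6% higher (39.1% either way). The members' median log2 fold change was -1.04, and that of all genes 0.14. In AKVPSL tumours the same 5 genes fell, by 0.69 to 3.82, and Cd47 and Lgals9 fell by less than 0.30. That made 7 of 10 lower and 0 higher, beside 24.6% of all genes lower and 22.4% higher (47.0% either way), with a median of -0.49 against -0.01 for all genes.

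**Figure D3:**
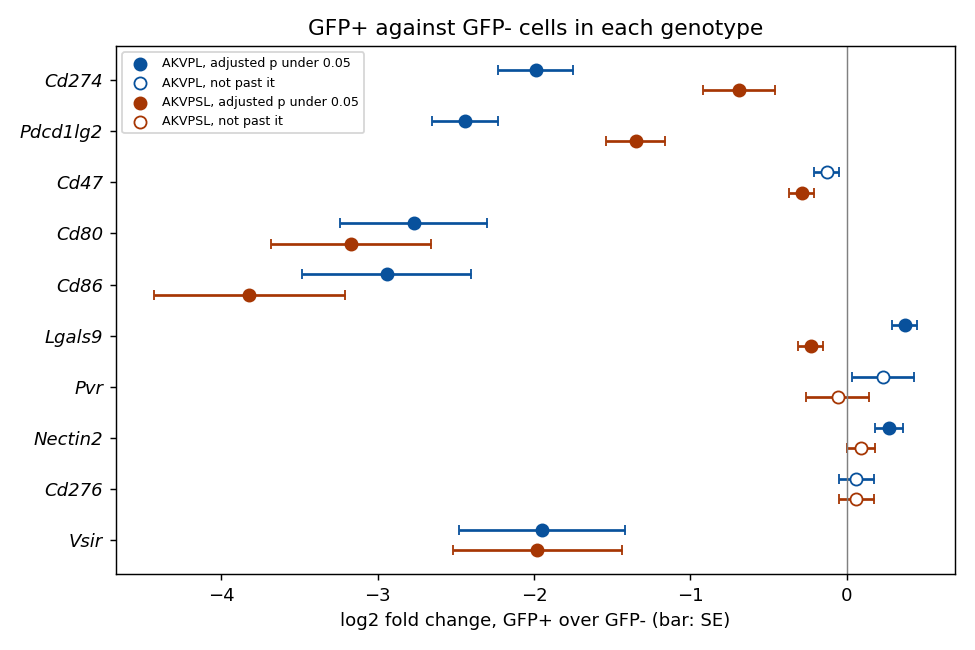
Log2 fold change of GFP+ over GFP- cells for each gene in AKVPL and AKVPSL, with SE as bars and filled points where the edgeR adjusted p is under 0.05. Cd80 and Cd86 lie furthest left in both genotypes (-2.77 to -3.82), Cd274 and Pdcd1lg2 lie nearer 0 in AKVPSL than in AKVPL, and Lgals9 lies right of 0 in AKVPL and left of it in AKVPSL.

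The genotype comparison asks how AKVPSL differed from AKVPL within a sort. In GFP+ cells Pdcd1lg2, Cd274 and Cd47 rose in AKVPSL and Lgals9, Cd80, Cd86 and Nectin2 fell. These were 3 of 10 members higher and 4 lower, beside 24.9% of all genes higher and 28.1% lower (53.0% either way). The median was -0.41 against -0.05 for all genes. In GFP- cells Pdcd1lg2 and Cd47 rose and Cd274, Cd80, Cd86 and Lgals9 fell, 2 of 10 higher and 4 lower beside 32.0% and 30.7% of all genes (62.7% either way). There the median was -0.40, and that of all genes 0.00. The members' share of calls was close to the background in both sorts. Each genotype comparison shares its libraries with the sort comparisons.

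**Figure D4:**
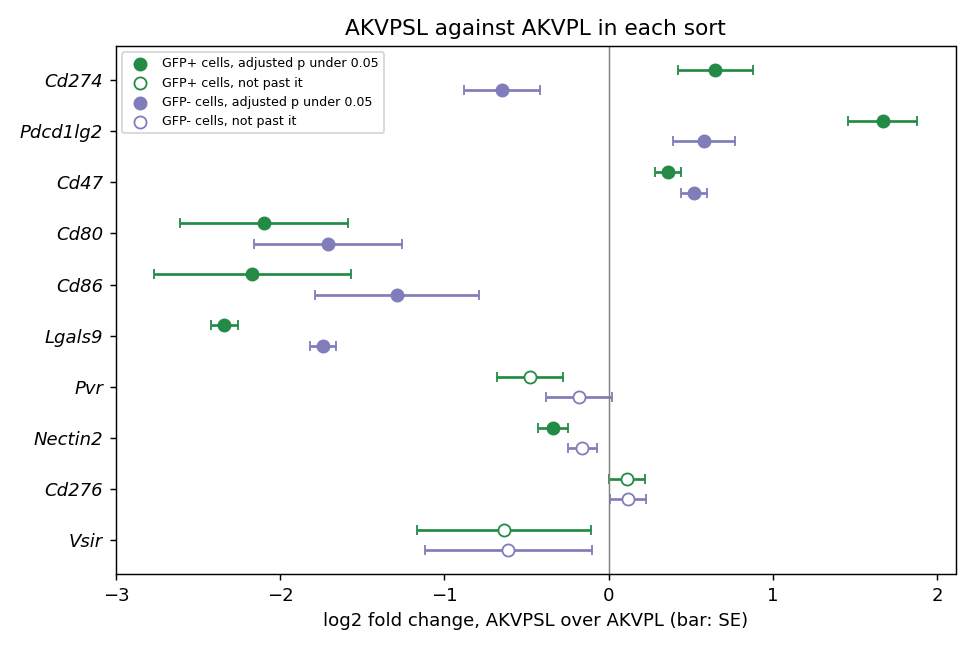
Log2 fold change of AKVPSL over AKVPL for each gene in GFP+ and GFP- cells, with SE as bars and filled points where the edgeR adjusted p is under 0.05. Cd274 lies at 0.65 in GFP+ and -0.65 in GFP- cells, Pdcd1lg2 and Cd47 lie right of 0 in both, and Lgals9, Cd80 and Cd86 lie left of it in both.

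Whether the sort effect itself differed between genotypes was tested as an interaction, the sort effect in AKVPSL minus that in AKVPL. It was past the threshold for 3 of 10 members, Cd274 and Pdcd1lg2 upward and Lgals9 downward, beside 20.8% of all genes (7.02% upward and 13.7% downward). For the other 7 members the difference was not past it, which does not show that their sort effects were equal.

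**Figure D5:**
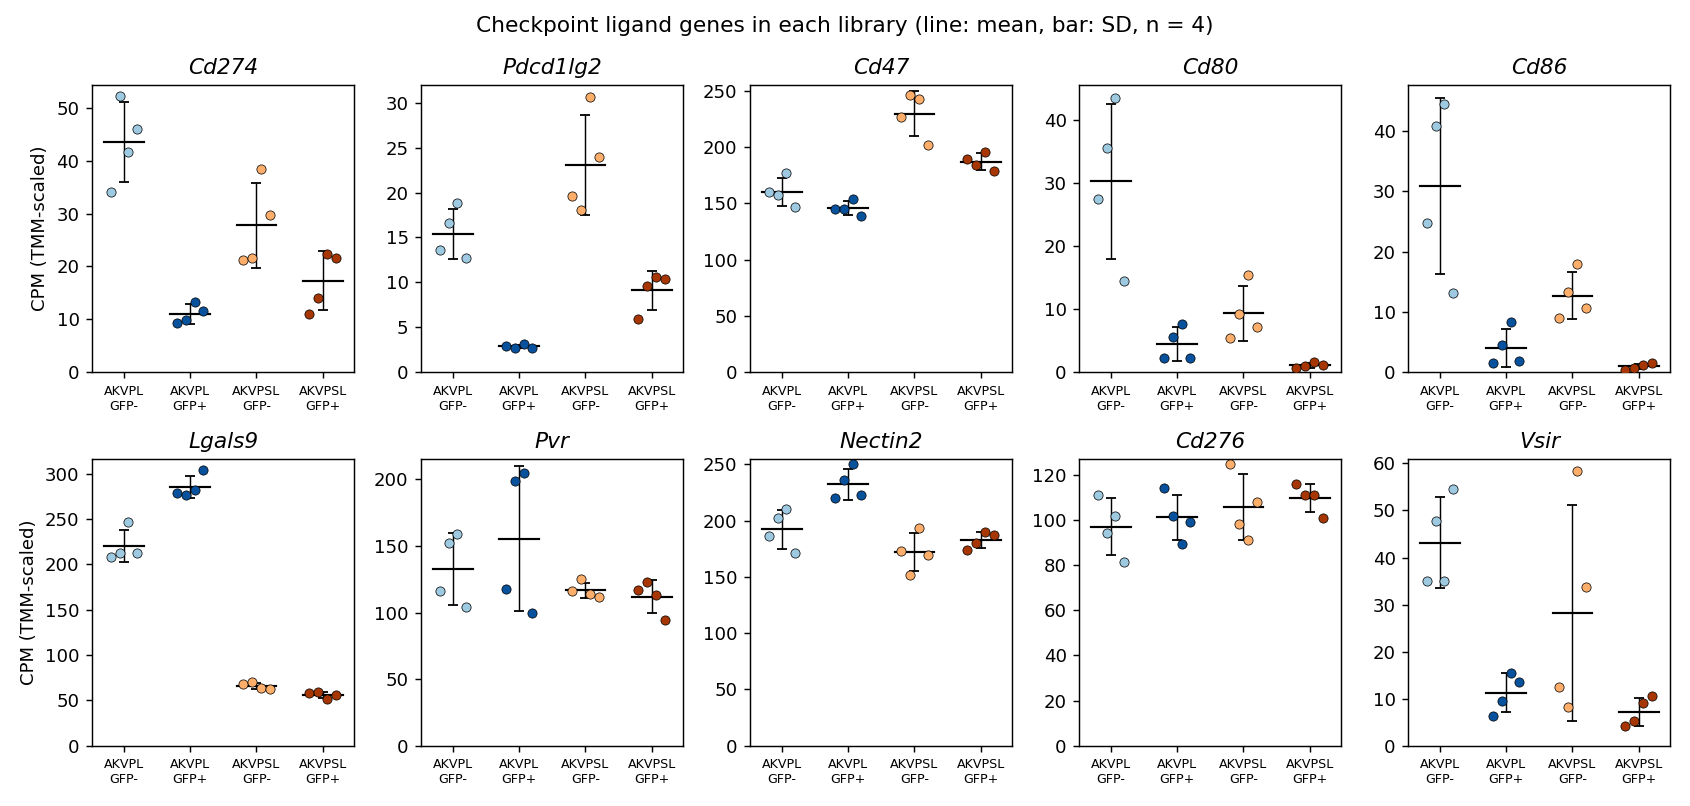
TMM-scaled CPM of each of the 10 genes in the 16 libraries, with the group mean as a line and the SD as a bar (n = 4), each panel on its own axis from 0. Cd274 and Pdcd1lg2 are low in GFP+ cells, most of all in AKVPL, Lgals9 is near 56 to 66 CPM on average in AKVPSL against 220 to 285 in AKVPL, and Cd276 is level across groups.

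The ligands of PD-1 were both lower in GFP+ cells, and more so in AKVPL. Cd274 read 34.1, 52.2, 41.7 and 46.1 CPM in the 4 libraries of AKVPL GFP- and 9.25, 9.77, 13.3 and 11.6 CPM in AKVPL GFP+. In AKVPSL it read 21.3, 21.6, 38.4 and 29.7 CPM in GFP- and 11.0, 14.1, 22.4 and 21.6 CPM in GFP+. The sorts were fully apart in AKVPL and overlapped in AKVPSL. Cd274 fell in GFP+ cells by 1.99 ± 0.24 (SE) on the log2 scale in AKVPL tumours (edgeR adjusted p = 8.04e-06). In AKVPSL tumours the fall was 0.69 ± 0.23 (edgeR adjusted p = 0.0212). The difference between these effects was 1.30 ± 0.33 (edgeR adjusted p = 0.0104).

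Between genotypes Cd274 moved in opposite directions in the 2 sorts, higher in AKVPSL by 0.65 ± 0.23 in GFP+ cells (edgeR adjusted p = 0.0258) and lower by a log2 change of -0.65 ± 0.23 in GFP- cells (edgeR adjusted p = 0.0201). The groups overlapped in both cases, and both calls depended on single libraries. In GFP+ cells the call was lost without AKVPL replicate 1 (0.58) or 2 (0.60), or without AKVPSL replicate 3 (0.50) or 4 (0.53), and on deposited RPKM plus 1 (0.47). In GFP- cells it was lost without AKVPL replicate 2 (-0.55), or without AKVPSL replicate 1 (-0.52) or 2 (-0.54). The sort call in AKVPSL was likewise lost without GFP+ replicate 2 (-0.60) or GFP- replicate 3 (-0.49), and with libraries scaled to their epithelial markers (-0.56). The summed pan-leukocyte markers fell between genotypes in both sorts, with log2 ratios of -1.72 in GFP+ and -1.31 in GFP- cells. They moved with Cd274 in GFP- cells and against it in GFP+ cells, as did fibroblast sums (-0.66 and -1.65). Endothelial sums went in the directions of Cd274, with 0.61 in GFP+ and -0.93 in GFP- cells, and -2.19 and -0.66 with the sort in AKVPL and AKVPSL. In AKVPSL GFP+ cells Vwf made up 97.1 of their 113 CPM. Of the 7 endothelial markers, 1 was called higher and 2 lower between genotypes in GFP+ cells (24.9% and 28.1% of all genes). The part of these cell types in the results for Cd274 was not tested. Plgrkt, which overlaps Cd274, read 36.9 ± 2.12 CPM in GFP- and 30.6 ± 3.56 in GFP+ cells of AKVPL, and 78.0 ± 12.5 and 50.1 ± 4.47 CPM in those of AKVPSL (SD, n = 4).

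Pdcd1lg2, the second ligand of PD-1, read 13.6, 16.6, 18.8 and 12.7 CPM in AKVPL GFP- and 2.87, 2.69, 3.12 and 2.71 CPM in AKVPL GFP+. Its AKVPSL levels were 19.6, 18.1, 30.6 and 24.0 CPM in GFP- and 5.89, 9.54, 10.6 and 10.4 CPM in GFP+. Every GFP+ library lay below every GFP- library of its genotype, and every AKVPSL GFP+ library lay above every AKVPL GFP+ library. The fall with the sort was 2.44 ± 0.21 on the log2 scale in AKVPL (edgeR adjusted p = 2.02e-07), or 5.41-fold, and 1.35 ± 0.19 in AKVPSL (edgeR adjusted p = 3.63e-05), or 2.54-fold. These differed by 1.09 ± 0.28 (edgeR adjusted p = 0.0109), a call that was lost on deposited RPKM plus 1 (0.55). Pdcd1lg2 rose in AKVPSL by 1.67 ± 0.21 in GFP+ cells (edgeR adjusted p = 1.83e-06), a 3.18-fold change. It rose by 0.58 ± 0.19 in GFP- cells (edgeR adjusted p = 0.0137), where the groups overlapped and the call was lost without AKVPSL GFP- replicate 3 (0.42) or with scaling to epithelial markers (0.33). The leukocyte, macrophage, dendritic cell and fibroblast sums were lower in AKVPSL in both sorts. In GFP- cells only 3 of 11 macrophage markers were called lower, beside 30.7% of all genes. Endothelial sums were higher in AKVPSL GFP+ cells (log2 ratio 0.61) and lower in AKVPSL GFP- cells (-0.93). The part of these cells in the levels of Pdcd1lg2 was not tested.

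CD80 and CD86, the ligands shared by CD28 and CTLA-4, had the steepest falls with the sort. Cd80 read 27.5, 35.5, 43.4 and 14.5 CPM in AKVPL GFP- and 2.27, 5.59, 7.65 and 2.16 CPM in AKVPL GFP+. The AKVPSL libraries read 5.37, 9.21, 15.4 and 7.22 CPM in GFP- and 0.570, 0.904, 1.60 and 1.11 CPM in GFP+. GFP+ and GFP- libraries did not overlap in either genotype. The fall was 2.77 ± 0.47 on the log2 scale in AKVPL tumours (edgeR adjusted p = 0.000309). It was 3.17 ± 0.51 in AKVPSL tumours (edgeR adjusted p = 0.000204). In AKVPSL, Cd80 was lower by a log2 change of -2.10 ± 0.51 in GFP+ (edgeR adjusted p = 0.00293) and -1.71 ± 0.45 in GFP- cells (edgeR adjusted p = 0.00376). The call in GFP+ cells was lost on deposited RPKM plus 1 (-0.65).

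Cd86 read 24.8, 40.9, 44.5 and 13.2 CPM in AKVPL GFP- and 1.44, 4.45, 8.28 and 1.88 CPM in AKVPL GFP+. For AKVPSL the levels were 8.98, 13.3, 17.9 and 10.6 CPM in GFP- and 0.371, 0.736, 1.10 and 1.48 CPM in GFP+. Like Cd80 it was highest in replicates 2 and 3 of both AKVPL sorts, and its sorts did not overlap. It fell with the sort by 2.94 ± 0.54 on the log2 scale in AKVPL tumours (edgeR adjusted p = 0.000725). In AKVPSL tumours the fall was 3.82 ± 0.61, or 14.2-fold (edgeR adjusted p = 0.000204). Without AKVPL GFP+ replicate 3 the log2 fold change in AKVPL was -3.56. Between genotypes Cd86 was lower in AKVPSL by a log2 change of -2.17 ± 0.60 in GFP+ (edgeR adjusted p = 0.00765; -1.55 without AKVPL GFP+ replicate 3), a call that was lost on deposited RPKM plus 1 (-0.64). In GFP- cells it was lower by -1.29 ± 0.50 (edgeR adjusted p = 0.0374), a call that was lost on leaving out any of 5 libraries (AKVPL GFP- replicate 2 or 3, AKVPSL GFP- replicate 1, 2 or 4), with values from -1.06 to -1.31, or on testing without a low-count filter (-1.34).

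Of the cells that carry CD80 and CD86, dendritic cells and macrophages had lower marker sums in all 4 comparisons, and more of their single markers were called lower with the sort than between genotypes. All 11 dendritic cell markers were called lower with the sort in both genotypes, 8 in AKVPSL GFP+ and 7 in AKVPSL GFP- cells against AKVPL. Of all genes, 16.5% and 24.6% were lower with the sort in AKVPL and AKVPSL. Between genotypes these shares were 28.1% in GFP+ and 30.7% in GFP- cells. Clec9a and Ccl17 each read 0 in 1 library of AKVPSL GFP+. The median log2 change of the 11 was -2.65 and -3.76 for the sorts in AKVPL and AKVPSL, and -2.20 and -1.53 for the genotypes in GFP+ and GFP- cells. Their summed level is mostly Cd74, the invariant chain of MHC class II, at 2430 of 2980 CPM in AKVPL GFP- and 432 of 514 CPM in AKVPSL GFP-. Clec9a, Flt3 and Batf3, genes of conventional dendritic cells, were not called between genotypes in GFP- cells (log2 changes of -0.08, -0.47 and -0.41). Of the 11 macrophage markers, 9 and 10 were lower with the sort in AKVPL and AKVPSL, and 5 and 3 between genotypes in GFP+ and GFP- cells, with medians of -2.36, -2.98, -1.30 and -0.68. In GFP- cells the 3 of 11 called lower stood beside 30.7% of all genes, and the macrophage sums of the genotypes overlapped. There Lyz2, the lysozyme gene of myeloid cells, went from 1910 CPM in AKVPL to 587 CPM in AKVPSL, while C1qa, C1qb and C1qc, which encode a complement component, had log2 changes of 0.00, 0.07 and 0.17 and were not called. The B cell sum was at most 3.38 CPM in any library, and its log2 ratio with the sort was -0.01 in AKVPL and -1.66 in AKVPSL. Its markers were split in AKVPL: Blk went from 0.434 to 1.13 CPM, Cd79a from 0.655 to 0.397 and Cd79b from 1.33 to 0.833. The median log2 change of the 3 tested was -0.69 there, with 1 called higher and 0 lower (22.6% and 16.5% of all genes). The part of these cells in the falls of Cd80 and Cd86 was not tested.

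Vsir, the VISTA gene, read 35.1, 47.7, 35.1 and 54.6 CPM in AKVPL GFP- and 6.26, 9.58, 15.5 and 13.6 CPM in AKVPL GFP+. In AKVPSL it read 12.5, 8.25, 58.3 and 33.8 CPM in GFP- and 4.11, 5.22, 9.03 and 10.5 CPM in GFP+. AKVPSL GFP- was split, with replicates 3 and 4 high and replicates 1 and 2 near the GFP+ level. The same pair of libraries was high in macrophage markers, at 3860 and 1960 CPM against 766 and 706. Vsir fell with the sort by 1.95 ± 0.53 on the log2 scale in AKVPL tumours (edgeR adjusted p = 0.0106). In AKVPSL tumours the fall was 1.98 ± 0.54 (edgeR adjusted p = 0.00827). Without AKVPSL GFP- replicate 3 the log2 fold change in AKVPSL was -1.35 and still called. Between genotypes Vsir did not pass the threshold, with log2 changes of -0.64 ± 0.53 in GFP+ and -0.61 ± 0.51 in GFP- cells. Without AKVPSL GFP- replicate 3 the change in GFP- cells was -1.23 and was called. The part of macrophages in these values was not tested. Cdh23, whose span holds Vsir, read 13.6 ± 3.99 CPM in GFP- and 6.96 ± 0.918 in GFP+ cells of AKVPL, and 11.6 ± 5.03 and 4.65 ± 0.367 CPM in those of AKVPSL (SD, n = 4).

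Cd47, which signals to SIRP alpha on phagocytes, was among the most even of the members. It read 160, 157, 177 and 147 CPM in AKVPL GFP- and 145, 145, 154 and 139 CPM in AKVPL GFP+. Its AKVPSL levels were 227, 246, 243 and 202 CPM in GFP- and 189, 184, 196 and 179 CPM in GFP+. Every AKVPSL library was above every AKVPL library, both sorts included. The rise in AKVPSL was 0.36 ± 0.08 on the log2 scale in GFP+ (edgeR adjusted p = 0.00124) and 0.52 ± 0.08 in GFP- cells (edgeR adjusted p = 2.79e-05), or 1.28-fold and 1.43-fold. With the sort Cd47 fell by 0.29 ± 0.08 in AKVPSL (edgeR adjusted p = 0.00686), a call lost when libraries were scaled to their epithelial markers (-0.18). In AKVPL its log2 change was -0.13 ± 0.08 (edgeR adjusted p = 0.205), and it became a call under other scalings (-0.23 with DESeq2 size factors).

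Among the ligands of TIGIT, Nectin2 moved little and Pvr was not called in any comparison. Nectin2 read 186, 202, 210 and 171 CPM in AKVPL GFP- and 220, 236, 250 and 223 CPM in AKVPL GFP+. The AKVPSL libraries read 173, 152, 193 and 169 CPM in GFP- and 174, 180, 190 and 187 CPM in GFP+. AKVPL GFP+ was the highest group, with no library overlapping either AKVPL GFP- or AKVPSL GFP+. Nectin2 was lower in AKVPSL GFP+ cells by a log2 change of -0.34 ± 0.09 (edgeR adjusted p = 0.00306). It was higher with the sort in AKVPL by 0.27 ± 0.09 (edgeR adjusted p = 0.0210), a small difference that other scalings took below the threshold (0.17 with DESeq2 size factors, 0.20 with library totals). It was also lost without AKVPL GFP+ replicate 3 (0.24) or AKVPL GFP- replicate 1 (0.26) or 4 (0.22). The changes with the sort in AKVPSL (0.09 ± 0.09) and with the genotype in GFP- cells (-0.16 ± 0.09) did not pass the threshold. The last became a call under every other scaling: DESeq2 size factors (-0.26), library totals (-0.27) and epithelial markers (-0.42). It was also called with the DESeq2 Wald test (-0.26) and on deposited RPKM plus 1 (-0.25) or plus 0.1 (-0.26). Leaving out AKVPL GFP- replicate 4 (-0.21) or AKVPSL GFP- replicate 3 (-0.22) made it a call as well.

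Pvr, the high-affinity ligand of TIGIT, read 116, 152, 159 and 104 CPM in AKVPL GFP- and 118, 199, 205 and 99.8 CPM in AKVPL GFP+. For AKVPSL the levels were 116, 125, 114 and 112 CPM in GFP- and 117, 123, 113 and 94.7 CPM in GFP+. Replicates 2 and 3 stood above replicates 1 and 4 in both AKVPL sorts, and the SD of AKVPL GFP+ (54.5 CPM) was larger than any difference between group means. The log2 change between genotypes in GFP+ cells was -0.48 ± 0.20 (edgeR adjusted p = 0.0511). It became a call without AKVPL GFP+ replicate 1 (-0.59) or 4 (-0.64), the libraries that were low. It was likewise called with the DESeq2 Wald test (-0.48), library totals (-0.52), scaling to epithelial markers (-0.41) and a filter at 1 CPM in 4 libraries (-0.49). The other 3 comparisons gave log2 changes between -0.18 and 0.23, each with an SE of 0.20, and scaling to epithelial markers made the genotype comparison in GFP- cells a call (-0.43).

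Cd276 was not called in any comparison. It read 111, 94.2, 102 and 81.3 CPM in AKVPL GFP- and 114, 102, 89.6 and 99.3 CPM in AKVPL GFP+. In AKVPSL it read 125, 98.1, 91.3 and 108 CPM in GFP- and 116, 111, 111 and 101 CPM in GFP+. The ranges of all 4 groups overlapped. Log2 changes were 0.06 ± 0.11 with the sort in each genotype, 0.11 ± 0.11 between genotypes in GFP+ and 0.12 ± 0.11 in GFP- cells.

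Lgals9 carried the most marked genotype difference of the 10 genes relative to its error. It read 208, 213, 247 and 213 CPM in AKVPL GFP- and 279, 277, 282 and 304 CPM in AKVPL GFP+. Its AKVPSL levels were 67.8, 70.1, 63.3 and 62.7 CPM in GFP- and 58.0, 59.3, 51.2 and 56.4 CPM in GFP+. No AKVPSL library came near an AKVPL library. The log2 change was -2.34 ± 0.08 in GFP+ cells (edgeR adjusted p = 2.57e-13), a 5.08-fold lower level, and -1.74 ± 0.08 in GFP- cells (edgeR adjusted p = 8.40e-12), a 3.34-fold lower level. With the sort Lgals9 rose in AKVPL by 0.37 ± 0.08 (edgeR adjusted p = 0.00128) and fell in AKVPSL by 0.23 ± 0.08 (edgeR adjusted p = 0.0258), without overlap of the sorts in either genotype. These effects differed by a log2 change of -0.60 ± 0.11 (edgeR adjusted p = 0.00157). The sort effects and their difference kept their signs under scaling to epithelial markers (0.21, -0.12 and -0.32) and were then no longer called. The fall in AKVPSL was also lost without GFP+ replicate 3 (-0.19) or 4 (-0.23), or GFP- replicate 2 (-0.20). The epithelial marker sum differed between genotypes by log2 ratios of -0.04 in GFP+ and 0.25 in GFP- cells.

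Among the receptors to which these ligands bind, Pdcd1, Cd28, Ctla4, Cd96, Cd226 and Pvrig were near 0. Tigit (below) and Selplg were not, with Selplg at 53.0 ± 12.5 CPM in AKVPL GFP- and 7.97 ± 3.42 in AKVPL GFP+ cells. Of 14 binding partners listed, 10 were tested and Cd28, Ctla4, Cd96 and Cd226 were too low, with group means of at most 0.399 CPM. Pdcd1, which encodes PD-1, stayed at or below 1.07 CPM in every library. Havcr2 (TIM-3), also found on dendritic cells and macrophages, was 19.3 ± 5.08 CPM in AKVPL GFP- and fell with the sort by 3.04 ± 0.39 on the log2 scale (edgeR adjusted p = 1.71e-05). Sirpa, the partner of CD47, was 178 ± 27.4 CPM in AKVPL GFP- and 41.6 ± 9.72 in AKVPL GFP+, against 136 ± 80.2 and 78.0 ± 7.96 in AKVPSL (SD, n = 4). Tigit stood out among the receptors of lymphocytes. It reached 22.0 ± 8.87 CPM (12.7 to 31.8) in GFP- cells of AKVPSL and 11.5 ± 3.09 in those of AKVPL, with 2.65 ± 1.44 and 7.11 ± 1.05 CPM in the matching GFP+ cells, while the 9 T and NK cell markers together summed to at most 8.06 CPM in any library. Tigit fell with the sort in AKVPSL by 3.06 ± 0.36 (edgeR adjusted p = 9.23e-06). Over the list, 6 of the 10 tested were lower and 2 higher with the sort in AKVPL (16.5% and 22.6% of all genes), and 5 and 3 in AKVPSL (24.6% and 22.4%). Between genotypes 4 were higher and 3 lower in GFP+ cells (24.9% and 28.1% of all genes), and 2 and 4 in GFP- cells (32.0% and 30.7%).

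Of 21 other ligands and surface enzymes that act on immune cells, 19 were tested. With the sort, 4 were higher and 9 lower in AKVPL, beside 22.6% and 16.5% of all genes, and 6 and 6 in AKVPSL, beside 22.4% and 24.6%. In AKVPSL against AKVPL, 5 were higher and 8 lower in GFP+ cells, where 24.9% and 28.1% of all genes were, and 4 and 10 in GFP- cells, where 32.0% and 30.7% were. Nt5e, which encodes CD73, the enzyme that makes adenosine from AMP, was 63.5 ± 8.83 CPM in AKVPL GFP+ and 1.53 ± 0.770 in AKVPSL GFP+, and fell by 5.43 ± 0.30 on the log2 scale (edgeR adjusted p = 5.32e-10). In GFP- cells it went from 132 ± 22.5 to 10.5 ± 2.38 CPM and fell by 3.65 ± 0.26 (edgeR adjusted p = 1.06e-08). Nectin3, a nectin that pairs with PVR and nectin-2, fell in AKVPSL by 2.07 ± 0.19 in GFP+ and 2.88 ± 0.20 in GFP- cells (edgeR adjusted p = 2.81e-08 and 8.95e-10). Ildr2 fell by 3.93 ± 0.50 and 3.66 ± 0.51. Ceacam1, an adhesion protein with an inhibitory tail, rose instead, by 2.34 ± 0.26 in GFP+ and 1.95 ± 0.26 in GFP- cells. Vtcn1, the gene of the B7 family member B7-H4, rose with the sort by 0.84 ± 0.12 in AKVPL and 0.60 ± 0.11 in AKVPSL.

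The other galectins and the galectin-3 binding protein did not all follow the fall of Lgals9 in AKVPSL. Of 8 tested, 3 rose and 3 fell in GFP+ cells (24.9% and 28.1% of all genes), and 3 rose and 2 fell in GFP- cells (32.0% and 30.7%). Lgals3bp, a secreted glycoprotein that binds galectins, fell most, from 709 ± 86.0 to 67.4 ± 15.2 CPM in GFP+ cells, a log2 change of -3.40 ± 0.20 (edgeR adjusted p = 2.81e-10), and by -2.93 ± 0.20 in GFP- cells. Lgals8 fell by 0.98 ± 0.09 and 0.51 ± 0.09. Lgals1 rose by 1.25 ± 0.14 and 1.26 ± 0.14, and Lgals7 by 1.25 ± 0.18 in GFP+ and 3.75 ± 0.20 in GFP- cells. With the sort, 5 galectin genes rose and 2 fell in AKVPL (22.6% and 16.5% of all genes), and 2 rose and 4 fell in AKVPSL (22.4% and 24.6%).

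The 19 genes listed as regulators of the members hold genes of interferon signalling, with Stat2 and Irf9 among them, and partners of the PD-L1 protein. Stat3, Socs3, Rela, Nfkb1, Hif1a, Ciita and the enzyme gene Qpctl are also on the list. All 19 were tested. In AKVPSL, 10 were lower and 3 higher in GFP+ cells, beside 28.1% and 24.9% of all genes, and 13 and 2 in GFP- cells, beside 30.7% and 32.0%. Stat2 went from 148 ± 12.3 to 21.0 ± 5.02 CPM in GFP+ cells and fell by 2.82 ± 0.20 on the log2 scale (edgeR adjusted p = 4.14e-09). Irf9, which joins STAT2 in the complex that binds interferon response elements, fell by 2.17 ± 0.11 (edgeR adjusted p = 1.27e-11). In GFP- cells Stat2 and Irf9 fell by 2.05 ± 0.20 and 2.06 ± 0.11. Among the members Lgals9 fell with them in both sorts and Cd274 in GFP- cells, while Cd274 in GFP+ cells and Pdcd1lg2 in both sorts rose. Qpctl, whose enzyme modifies the SIRP alpha binding site of CD47, fell by 0.96 ± 0.11 in GFP+ and 1.01 ± 0.12 in GFP- cells. Hif1a was among the 3 that rose in AKVPSL GFP+ cells, by 0.87 ± 0.11 (edgeR adjusted p = 3.35e-06). Cmtm6, a protein that keeps PD-L1 at the cell surface, fell with the sort in AKVPL by 0.39 ± 0.09. Its sort effect was 0.44 ± 0.13 higher in AKVPSL than in AKVPL (edgeR adjusted p = 0.0228), the same direction as for Cd274. With the sort, 1 regulator was higher and 7 lower in AKVPL (22.6% and 16.5% of all genes), and 5 and 3 in AKVPSL (22.4% and 24.6%).

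Genes with the most similar profiles were ranked over the 16 libraries among 12253 tested genes with a symbol, by the root mean square difference between log2 CPM profiles that were each centred on their own mean. The points share libraries and groups, so this is a description. The nearest genes of Cd274 included Prune2 (0.25) and Sirpa (0.29), with a root mean square of 0.81 for its own profile. Pdcd1lg2 was nearest to Hlx (0.24), Angptl2 (0.35) and Atp6v1c2 (0.35), with 1.15 for its own profile. Cd80 was nearest to Gpr132 (0.37), Lilrb4a (0.37) and Tm6sf1 (0.38), and Cd86 to Ncf4 (0.39), Lsp1 (0.41) and Cd80 itself (0.41). Lgals9 was nearest to Parp12 (0.18), Avil (0.20) and Adar (0.20), with 1.04 for its own profile. Vsir was nearest to Gas6 (0.38), Col14a1 (0.38) and Unc93b1 (0.41), and Pvr to F2rl1 (0.13), Fhl2 (0.16) and Ppp2r2d (0.17). The nearest genes of Cd47 were Rab22a (0.09), Nrbp1 (0.09) and Sart1 (0.10). Nectin2 was nearest to D11Wsu47e (0.08) and Cd276 to Mboat7 (0.10), beside 0.19 and 0.15 for their own profiles.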

How the data were processed

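RNA sequencing counts of 16 libraries were used. Per the file headers, the deposited counts are reads that align uniquely to a gene model, and an RPKM value adjusted by a size factor was deposited beside each. The submitters' processing notes name GSNAP and build GRCm38, without versions; annotation and strand setting are not stated there. Symbols and positions came from a RefSeq table (GRCm38.p6) that matched 31049 of 36528 IDs (85.0%).

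Counts were filtered (filterByExpr), TMM-scaled and fitted with edgeR 4.0.16 (robust quasi-likelihood, R 4.3.3), with a mean per group over all 16 libraries, 12 residual degrees of freedom and a biological coefficient of variation of 0.182. F tests were two-sided, with Benjamini-Hochberg adjustment over 18072 genes and a threshold of 0.05. SEs were derived from the F statistic and are approximate. Tests were run on simulated counts in which few genes changed, unlike these data, so that check does not bear on the choice of scaling. Chi-square values per degree of freedom between replicates were 9.64 to 79.8 over 24 pairs, far above sampling noise, so none was merged as a duplicate. That does not show separate animals.

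Groups came from sample titles. In AKVPL, GFP+ and GFP- libraries of one number correlated in their deviations from group means (0.114 to 0.215). Unlike numbers reached at most 0.102. In AKVPSL the same-number values were 0.105 to 0.301, but unlike numbers reached 0.312 (GFP+ replicate 3 with GFP- replicate 4). The numbers thus did not single out pairs in AKVPSL. This check of the data, not the labels, is the source of the pairing used for the replicate block. Between genotypes the libraries did not pair by number. Alternatives were other scalings, filters, tests (DESeq2 1.42.0, limma 3.58.1 on log2 of RPKM plus 1 or 0.1), a replicate block, the groups compared alone, and leaving out each library.

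The members and gene lists were chosen with earlier results of these data known. Text names all members, Lgr5, up to 6 genes per list and comparison by smallest adjusted p, and up to 3 genes of similar profile, with overlapping genes and receptors too low to test added after their values were seen. Protein sequences were not used here. Some genes that this rule takes are not reported here.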

Additional observations from a re-analysis of the deposited data

Results flagged for a closer look

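The sort effect (GFP+ against GFP-) of 3 members differed between genotypes by the interaction test itself. Cd274 fell with the sort in both genotypes, and its log2 effect was 1.30 ± 0.33 (SE) higher in AKVPSL than in AKVPL (edgeR adjusted p = 0.0104), with values of 1.15 to 1.50 on leaving out each library. Pdcd1lg2 likewise fell in both, with a difference of 1.09 ± 0.28 (edgeR adjusted p = 0.0109) and values of 0.98 to 1.25 on leaving out each library, but it was no longer called on deposited RPKM plus 1 (0.55; limma adjusted p = 0.0738). Lgals9 rose with the sort in AKVPL and fell in AKVPSL, with a difference of -0.60 ± 0.11 (edgeR adjusted p = 0.00157), between -0.66 and -0.56 without each library in turn. Scaling to epithelial markers ended this call (-0.32; edgeR adjusted p = 0.151) and both sort calls of Lgals9 (0.21 and -0.12).

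Lgals9 in AKVPL GFP- had a library far from the other 3: replicate 3 read 247 CPM against 208, 213 and 213. It was the 1 such case among 40 sets of a member and a group, and chance gives about 1 in 20.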

How the results depend on the processing

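Of the values of members under alternatives, 852 kept direction and side of the threshold, 40 lost the call, 25 gained it and 53 changed sign, in every case for a member not called. Depth limits Cd80 and Cd86 in AKVPSL GFP+ cells (125 and 106 counts summed over 4 libraries). The cause was not tested for any change listed here.

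Counts of members called higher with the sort in AKVPL went from 2 to 1 with DESeq2 size factors, library totals, no filter, the DESeq2 Wald test, RPKM (either pseudocount) or the 2 groups alone, and to 0 with scaling to epithelial markers. The same scaling left 4 lower for the sort in AKVPSL, 1 higher between genotypes in GFP- cells and 0 lower for the difference of sort effects. RPKM plus 1 left 2 lower between genotypes in GFP+ cells (Cd80 -0.65 and Cd86 -0.64 no longer called) and 1 higher for the difference (Pdcd1lg2 0.55). Leaving out a library gave 1 to 2 higher for the sort in AKVPL, 1 to 2 higher and 2 to 6 lower between genotypes in GFP- cells.

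Scaling moved the share of higher among all calls: for the sort in AKVPL 57.8% with TMM, 42.1% with DESeq2 size factors and 24.9% with epithelial markers; for genotypes in GFP- cells 51.1% against 33.5% with epithelial markers; for the sort in AKVPSL 47.7% against 58.2%; for the difference 33.8% against 49.2% with DESeq2 size factors and 78.9% with epithelial markers. The median of all genes moved with it, from 0.137 to -0.0346 for the sort in AKVPL, from 0.00172 to -0.26 between genotypes in GFP- cells and from -0.101 to 0.186 for the difference (TMM to epithelial markers).

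The replicate block changed no sort call of a member, although in AKVPSL the numbers did not single out pairs. Between genotypes, where numbers did not pair, it made calls of Pvr in GFP+ (-0.43) and Vsir in GFP- cells (-0.93).

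Sign changes were as follows. Cd276 for the sort in AKVPL was -0.04 (DESeq2 size factors and Wald test), -0.02 (library totals), -0.10 (epithelial markers), -0.03 (no filter and RPKM), -0.05 (2 groups alone), and -0.01 to 0.13 without 1 library. For the sort in AKVPSL, Cd276 was -0.06 to 0.10 without 1 library, Nectin2 ran from 0.00 to 0.15, and Pvr was 0.05 (epithelial markers) or between -0.17 and 0.01 without 1 library. Between genotypes in GFP- cells Cd276 was -0.14 (epithelial markers). For the difference of sort effects, Cd276 was 0.09 (DESeq2, RPKM), 0.06 (library totals), 0.27 (epithelial markers), 0.07 (no filter), 0.01 (filter at 1 CPM) and -0.07 to 0.09 without 1 library. Vsir was 0.06 (DESeq2), 0.04 (library totals), 0.31 (epithelial markers), 0.02 (no filter), 0.45 (RPKM), 0.29 (replicate block) and -0.33 to 0.60 without 1 library. Epithelial markers gave 0.13 for Cd47, 0.11 for Nectin2 and 0.01 for Pvr. RPKM gave Cd80 0.74 (plus 1) or 0.16 (plus 0.1) and Cd86 0.42 (plus 1).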
